A study of Mus musculus with 20 samples.

Results

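Bulk RNA-Sequencing of low-content metastasis (Lt) was compared with that of high-content metastasis (Ht), 5 of the 20 libraries of a study of colorectal liver metastasis (CRLM) in mice. The libraries were chosen by their labels. Lt_1 and Lt_2 came from liver holding low-content tumor at 9 days post-injection (dpi), and Ht_1, Ht_2 and Ht_3 from liver holding high-content tumor at 12 dpi. Every mouse in both groups was a wild-type C57BL/6 animal that had received 1000000 MC38 cells, a transplantable colon adenocarcinoma line of the same strain, through the spleen, so tumor cells and host liver were sequenced together. The control liver named below (con, 2 libraries) came at day 0 from mice given normal saline. The labels give the mice as male and the Methods as female, and the Y-linked genes described at the end were detected in both Lt, all 3 Ht and both con libraries. Each library came from a small aliquot of a tissue piece centered on a metastasis, and the Methods state that 2 livers were prepared for each group. Ht_1 and Ht_3 are described there as identical. Their counts were therefore summed to a single sample, Ht_1/3, and 4 samples entered the comparison, 2 of Lt and 2 of Ht. Day and tumor content differ together between these groups and cannot be told apart.

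A metastasis that enlarges inside the liver replaces a tissue built of hepatocytes, which make plasma proteins and carry out most metabolism, and of the cells that line and surround the sinusoids. These are the fenestrated sinusoidal endothelium, the Kupffer cells, which are the resident macrophages, and the stellate cells, which store vitamin A. A growing tumor brings dividing cancer cells, fibroblasts with their collagen-rich matrix, new vessels and macrophages recruited from the blood. The comparison of Lt with Ht asks which of these programs grow with the tumor once it is established, and which are lost beside those of the hepatocytes.

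The 5 libraries held between 16398552 and 18246623 counts, so 3 counts, the lowest level read here as detection, lay between 0.164 and 0.183 CPM (counts in each 1000000); this covers counting error only. Levels are given as TMM-normalized CPM in the order Lt_1, Lt_2 and then Ht_1/3, Ht_2. All genes were fitted together over 13 tissue samples with the quasi-likelihood test of edgeR, adjusted by Benjamini-Hochberg. Calls of higher or lower required an adjusted p no larger than 0.05 together with a log2 fold change of 1 or more in either direction. Ht_1 and Ht_3 nevertheless differed beyond sampling noise, with a chi-square per degree of freedom of 27.6 over their counts, where Ht_1 and Ht_2 gave 26.7, Ht_2 and Ht_3 gave 12.1 and the Lt libraries gave 52.5. The labelled liver was checked by its hepatocytes: 98 listed hepatocyte genes took 21.6% and 16.0% of all counts in Lt and 1.00% to 1.56% in the Ht libraries, and 22.8% and 20.3% in con.

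Of 17187 genes tested, 2004 rose from Lt to Ht (11.7% of those tested) and 3476 fell (20.2%), so 31.9% were called in either direction. The losses were deeper than the gains. The median log2 fold change was 1.54 among genes that rose and -2.66 among those that fell, and 978 genes fell by a log2 fold change of at least 4. The Ht and Lt samples did not overlap for any called gene. This adds little to the calls, since a called change between 2 and 2 samples mostly leaves no overlap. The share without overlap over all genes tested was not counted. The median over all genes tested was -0.01 after TMM scaling, but 0.87 with total-count scaling and 0.60 when libraries were scaled by genes outside the hepatocyte lists. The balance therefore depended on the scaling: 36.6% of the called genes were higher in Ht after TMM scaling, 74.9% (6216 higher, 2081 lower) with total counts and 65.9% (4591 higher, 2379 lower) with genes outside the hepatocyte lists. No gene was called in opposite directions under these scalings. The calls also depended on single samples. Without Lt_1, 612 genes were called higher and 2174 lower, without Ht_1/3, 1034 and 2123, and without Ht_2, 1128 and 2405, against 2468 and 3492 without Lt_2.

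The Lt libraries were unlike each other in one consistent respect. Of the 2004 genes that rose to Ht, 1848 were already higher in Lt_2 than in Lt_1, and the median ratio of Lt_2 to Lt_1 over the 2004 was 1.64. Conversely, 3075 of the 3476 that fell were higher in Lt_1, and the shares over all genes tested were not counted. The genes of the tumor line itself lay the same way. Stra6, a membrane receptor for the retinol-binding protein, was not detected in con and was at 24.6 and 68.7 CPM in Lt and 229 and 218 in Ht. Lt_2 thus held more of it than Lt_1 and less than either Ht sample (log2 fold change 2.26, standard error 0.52, edgeR adjusted p = 0.0101, and 0.052 without Lt_1). Flnc, an actin-crosslinking filamin, was at 24.1 and 61.7 CPM in Lt and 186 and 179 in Ht. Lgals7, a galectin, was at 19.7 and 43.5 CPM in Lt and 110.5 and 85.3 in Ht. The order of the samples was that of Stra6, and both genes were at 0 in con. These genes and Grem1 had been singled out in earlier results of the same data as MC38 genes, so their order is a description. Stra6, Flnc and Lgals7 rose, and Grem1, a secreted antagonist of bone morphogenetic proteins, was at 21.9 and 44.4 CPM in Lt and 70.3 and 72 in Ht and was not called (log2 fold change 1.10, edgeR adjusted p = 0.0512). Without Lt_1, 1 of the 4 was called higher, and without either Ht sample, 2 were.

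**Figure D1:**
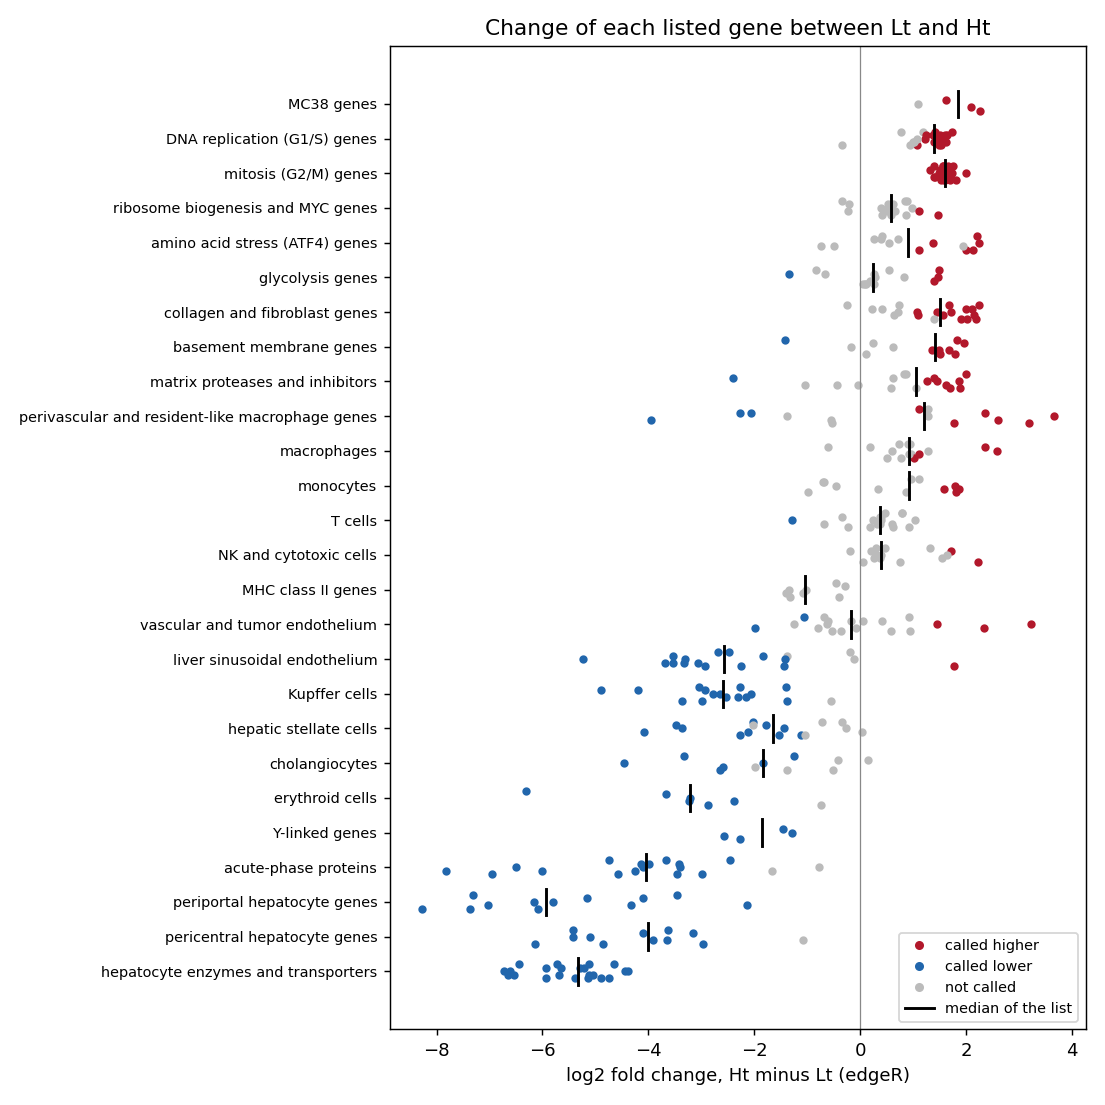
Log2 fold change from Lt to Ht (edgeR, horizontal axis) of each tested gene in 26 gene lists, 1 dot per gene, colored by whether it was called higher, lower or neither, with the list median as a bar. The mitosis genes lie between 1.32 and 1.99 and the hepatocyte enzymes between -6.73 and -4.39, and the medians of the Kupffer cell and sinusoidal lists lie in between.

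Genes of cell division rose together. Here as below, in bulk tissue a change in the number of cells of a type and a change in RNA per cell cannot be told apart: fewer cells and less RNA per cell look alike. All 25 listed mitosis genes were called higher, with log2 fold changes from 1.32 to 1.99 and a median of 1.61, while 11.7% of all genes were called higher. Foxm1 (ENSMUSG00000001517, GRCm38 chromosome 6 from 128362967 to 128376146), the transcription factor that drives many mitotic genes, was at 17.4 and 35.7 CPM in Lt and 105 and 106 in Ht. The Ht values were close together and above both Lt values (log2 fold change 1.99, standard error 0.38, edgeR adjusted p = 0.00445). Mki67, the antigen of the Ki-67 proliferation stain, was at 67.4 and 112 CPM in Lt and 282 and 262 in Ht. Top2a, which untangles replicated DNA, was at 63 and 135 CPM in Lt and 298 and 317 in Ht. In each of these genes Lt_1 was lowest, Lt_2 intermediate and Ht highest. The same held for Ccnb1, the cyclin that drives entry into mitosis, at 25.8 and 52.2 CPM in Lt and 129.8 and 119 in Ht. In con these genes were near the bottom of the scale, with Foxm1 at a mean of 1.21, Mki67 at 3.79, Top2a at 3.1 and Ccnb1 at 1.27 CPM. Of 24 genes of DNA replication, 17 rose and none fell, with a median of 1.40. The subunits of the replicative helicase moved alike, with log2 fold changes from 1.07 for Mcm7 to 1.61 for Mcm5. Uhrf1, which keeps DNA methylation through replication, rose most in this list, with a log2 fold change of 1.74, and was at 20.2 and 50.9 CPM in Lt and 117 and 121 in Ht. Pcna, the sliding clamp, missed the fold threshold, with a log2 fold change of 0.998 (edgeR adjusted p = 0.0123). Both counts were lowest without Lt_1: without it 5 mitosis genes and 4 replication genes were called higher, against 25 and 19 without Lt_2, 14 each without Ht_1/3, and 18 and 12 without Ht_2.

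Promoters of the mitosis genes were searched for 2 short elements. In the 250 bases upstream of the RefSeq start (GRCm38.p6, both strands), 17 of the 20 mitosis genes with a promoter sequence held a CCAAT box (85%), against 36.3% of 11978 tested genes with a promoter. The CHR element, written TTTGAA, was in 7 of 20 (35%), against 11.3%, but also in 3 of 10 promoters of the collagen and fibroblast list (30%) and 4 of 14 of the Kupffer cell list (28.6%). Among the replication genes 12 of 19 held a CCAAT box (63.2%). These are matches of letters and not measured binding sites. The promoters of Top2a and Kif11, a mitotic kinesin at 19.8 and 39 CPM in Lt and 90.8 and 89 in Ht, hold both elements and are shown 5′ to 3′. Capitals mark the CCAAT box (or its reverse complement, ATTGG) and the CHR element or its reverse complement. The Top2a window is chr11:99024190-99024439 on the minus strand and the Kif11 window chr19:37376132-37376381 on the plus strand, both upstream of the first exon.
Top2a: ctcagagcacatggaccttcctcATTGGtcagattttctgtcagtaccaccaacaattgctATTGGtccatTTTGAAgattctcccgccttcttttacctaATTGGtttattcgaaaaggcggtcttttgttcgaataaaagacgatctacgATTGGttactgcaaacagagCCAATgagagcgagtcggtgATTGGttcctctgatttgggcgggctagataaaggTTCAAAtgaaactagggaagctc
Kif11: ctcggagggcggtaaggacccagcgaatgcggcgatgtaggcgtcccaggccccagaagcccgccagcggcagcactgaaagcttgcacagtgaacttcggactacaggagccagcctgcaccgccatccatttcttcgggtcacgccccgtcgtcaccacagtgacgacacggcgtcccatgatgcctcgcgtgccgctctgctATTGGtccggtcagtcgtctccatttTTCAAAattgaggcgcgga

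Growth-related metabolism was read from 4 lists, beside 11.7% of all genes called higher and 20.2% lower. Of 17 genes of ribosome biogenesis and MYC, Myc, the transcription factor itself, and Cad, which starts pyrimidine synthesis, passed the test. Myc was at 17 and 23.8 CPM in Lt and 52.5 and 61.1 in Ht. The count is 2 of 17, and without Lt_1 Cad was not called. The list median was 0.58, and 14 members were called higher under total-count scaling. In the list of amino acid stress genes, 6 of 14 rose and none fell. They were Phgdh and Psat1 of serine synthesis, Asns of asparagine synthesis, the mitochondrial folate enzyme Mthfd2, the amino acid transporter Slc7a5 and the pseudokinase Trib3. Phgdh was at 20.7 and 71.4 CPM in Lt and 197 and 205 in Ht. Psat1 was at 14.9 and 44.3 CPM in Lt and 133 and 143 in Ht. Slc7a5 was at 16.6 and 38.5 CPM in Lt and 125 and 136 in Ht. In con Psat1 and Phgdh were at 0.472 and 0.561 CPM, so both genes went from near detection in normal liver through intermediate levels in Lt to their highest levels in Ht. Atf4 itself, the transcription factor behind the list, was at 127 and 145 CPM in Lt and 195 and 200.2 in Ht (log2 fold change 0.54) and was not called. Without Lt_1, 2 members were called higher, without Ht_1/3, 3 were, and without Ht_2, 4 were. Of 16 glycolysis genes, 3 rose and 1 fell. Pkm, the pyruvate kinase of proliferating cells, was at 162 and 359 CPM in Lt and 755 and 697 in Ht. The hexokinase Hk1 rose by 1.39 and the lactate exporter Slc16a3 by 1.49 on the log2 scale. Ldha, the lactate dehydrogenase subunit, fell from 1279.5 and 934 CPM in Lt to 441 and 437 in Ht. Without Lt_1 all 4 glycolysis calls were lost (edgeR adjusted p = 0.143 for Pkm, 0.0578 for Hk1, 0.209 for Slc16a3 and 0.146 for Ldha), and those of Pkm, Slc16a3 and Ldha were also lost without either Ht sample. With total counts 10 of the glycolysis genes were called higher and none lower. Among 18 hypoxia genes, P4ha1 and Ddit4 rose, and Vegfa and Bnip3 fell, with a list median of 0.20. The calls of P4ha1 and Ddit4 were lost without Lt_1 (log2 fold changes 0.80 and 1.41). That of P4ha1 was also lost without Ht_2 (1.04) and with Ht_1 in place of Ht_1/3 (0.99). That of Ddit4 was also lost without Ht_1/3 (1.35), and that of Vegfa under total-count scaling.

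Ranked by gain in FPKM (TMM-normalized CPM for each kilobase of gene), Lgals1, a secreted galectin, came first, with a mean of 767 FPKM in Lt and 2524 in Ht. S100a11, a calcium-binding protein, had a mean of 164 FPKM in Lt and 573 in Ht. The collagen gene Col3a1 followed with 144 FPKM in Lt and 474 in Ht, ahead of Col6a1, the collagen chaperone Serpinh1 and the intermediate filament gene Vim. The next were C1qb, a complement subunit made by macrophages, the gene model Gm10123, the tubulin Tuba1b and the elongation factor subunit Eef1g. Without Lt_1 the edgeR adjusted p was 0.204 for Lgals1, 0.186 for Col3a1, 0.156 for Serpinh1 and 0.106 for Vim, and these 4 calls were also lost without either Ht sample. The call of C1qb was lost without each single sample (0.0507 to 0.227), that of Gm10123 in 6 alternatives, among them the replicate block (log2 fold change 0.999) and the fits without Lt_1, Lt_2 or Ht_1/3, that of Eef1g without Lt_1 or Ht_2, and that of S100a11 without Lt_1 (0.0800). Of 20 collagen and fibroblast genes, 13 rose and none fell, with a median of 1.51, where 11.7% of all genes were called higher and 20.2% lower. Col6a1 was at 241 and 568 CPM in Lt and 1938 and 1737 in Ht (log2 fold change 2.18, standard error 0.45, edgeR adjusted p = 0.00581), with Lt_2 above Lt_1 and both Ht samples far above either. Fap, the surface protease used to mark activated fibroblasts, was at 1.72 and 4.79 CPM in Lt and 17.5 and 13.5 in Ht. Pdgfra, a growth factor receptor of fibroblasts, was at 35.5 and 64 CPM in Lt and 203 and 200.4 in Ht. Decorin (Dcn), a matrix proteoglycan of stellate cells and fibroblasts, was instead level after TMM scaling (log2 fold change 0.03). It was at 339.9 and 337 CPM in Lt and 359 and 334 in Ht. Total-count scaling raised the median log2 fold change of all genes to 0.87, so this reading depends on the scaling. Of 12 basement membrane genes 7 rose and 1 fell, with a median of 1.42. The laminins Lamb1 and Lamc1 were among those that rose, and Hspg2, the perlecan gene, was at 158 and 353 CPM in Lt and 1004 and 1001 in Ht. Col18a1, which encodes the precursor of endostatin, fell from 924 and 847 CPM in Lt to 331 and 328 in Ht, and its con mean was 1435 CPM. Its call was lost under total-count scaling (log2 fold change -0.53, edgeR adjusted p = 0.147) and when any of the 4 samples was left out (0.0525 to 0.113). Of 17 matrix proteases and inhibitors, 8 rose, with a median of 1.06, and Mmp19 fell. Mmp14, the membrane-bound collagenase, was at 109 and 148 CPM in Lt and 322 and 297 in Ht. The inhibitor Timp2 was at 75.7 and 97.5 CPM in Lt and 278 and 283 in Ht, with the Lt samples close together and both Ht samples above them. Without Lt_1, 3 collagen, 4 basement membrane and 3 protease genes were called higher, and without Ht_1/3 the counts were 4, 4 and 2. Without Ht_2 they were 8, 6 and 5.

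**Figure D2:**
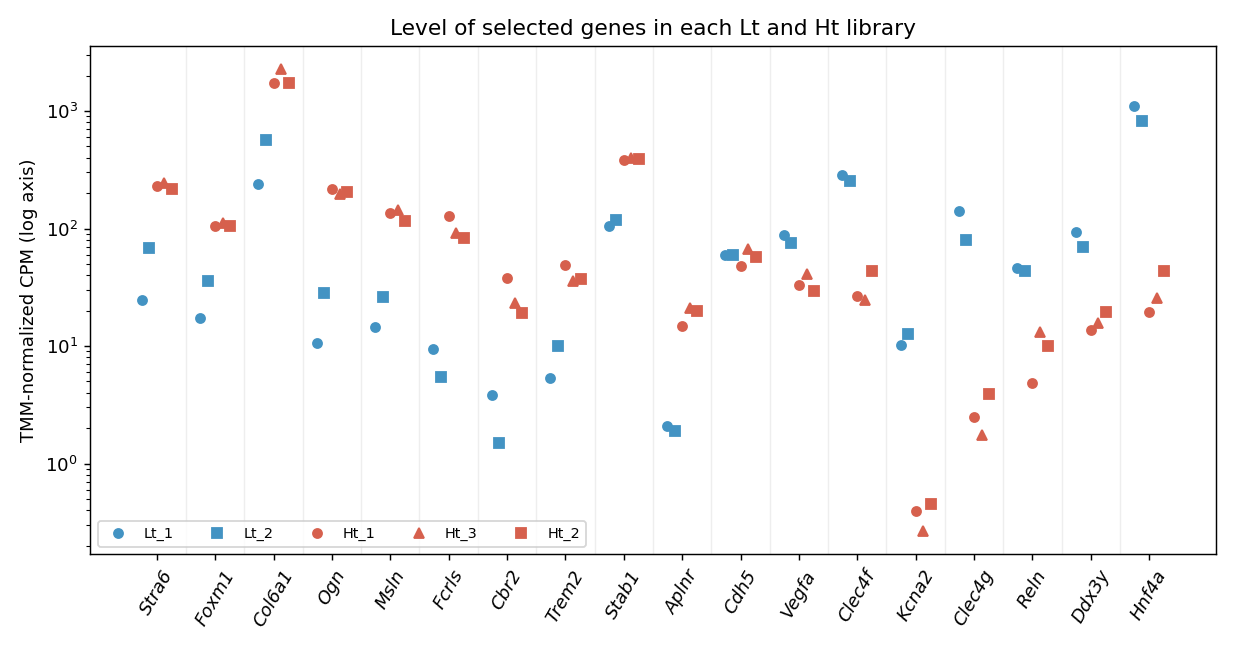
TMM-normalized CPM (log axis) of 18 selected genes in the 5 libraries, blue for Lt and red for Ht, with Ht_1 and Ht_3 drawn apart and scaled with the 14 single libraries. Genes of tumor, cycle and matrix are lowest in Lt_1, Fcrls and Cbr2 are not higher in Lt_2 than in Lt_1, and Cdh5 is level.

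Of 15 mesenchymal genes 7 rose and 1 fell, with a median of 1.32 (all genes: 11.7% higher, 20.2% lower). Among those that rose were Vim, the transcription factors Snai1 and Twist1, and the actin bundler Fscn1. Twist1 was at 9.6 and 21.5 CPM in Lt and 66 and 54.9 in Ht. Fscn1 was at 44.4 and 109 CPM in Lt and 311 and 329.6 in Ht, with each Ht sample well above Lt_2 and Lt_1 lowest. Cdh2, the N-cadherin gene that hepatocytes also express, fell from 86.6 and 74.3 CPM in Lt to 7.05 and 9.57 in Ht. The count of 7 became 3 without Lt_1, 3 without Ht_1/3, 4 without Ht_2 and 11 without Lt_2. Of 11 epithelial and colon genes tested, 6 fell, against the 20.2% of all genes. Krt8, a keratin of simple epithelia, fell from 447 and 246 CPM in Lt to 65.2 and 134 in Ht, and Cdh1, the E-cadherin gene, from 86.7 and 51.7 CPM in Lt to 6.19 and 7.76 in Ht. In con they were at 295 and 93.7 CPM. Cdh17, the intestinal cadherin, was the only tested member that rose, and it stayed low (0.0717 and 0.324 CPM in Lt and 2.63 and 2.65 in Ht). Its call was lost without Lt_1 (edgeR adjusted p = 0.0527). That of Krt8 was lost without Lt_1 (0.0795), without Ht_1/3 (0.0692) and under total-count scaling, where its log2 fold change was -0.87. Cdx1, Cdx2, Krt20, Gpa33 and Muc13, further markers of intestinal epithelium, did not pass the expression filter.

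Among genes that rose and had at least 10 CPM in Ht, the steepest rise by log2 fold change was that of a macrophage gene. Fcrls (ENSMUSG00000015852, GRCm38 chromosome 3 from 87250758 to 87263738), an Fc receptor-like gene known from microglia and resident macrophages, was at 9.39 and 5.44 CPM in Lt and 105 and 82.6 in Ht. Both Ht samples lay far above both Lt samples, and Lt_2 lay below Lt_1 (log2 fold change 3.66, standard error 0.52, edgeR adjusted p = 0.00302). Cbr2, a carbonyl reductase found in tissue-resident macrophages, was at 3.8 and 1.49 CPM in Lt and 29.3 and 19.1 in Ht (log2 fold change 3.20, standard error 0.56, edgeR adjusted p = 0.00372). F13a1, the coagulation factor XIII A chain of monocytes and macrophages, was at 17.2 and 13.8 CPM in Lt and 95.3 and 93.6 in Ht (log2 fold change 2.61, standard error 0.29, edgeR adjusted p = 0.00302). In con the means were 0.0414, 0.0827 and 0.301 CPM. In these 3 genes and in Ms4a7, a membrane protein of macrophages at 6.95 and 5.44 CPM in Lt and 35.3 and 39.1 in Ht, Lt_2 was below Lt_1, unlike in the 1848 genes above. The list of perivascular and resident-like macrophage genes held 14 genes, with a median of 1.2, and 6 rose, while 11.7% of all genes were called higher and 20.2% lower. Those that rose were Fcrls, Cbr2, F13a1, the chemokine Pf4, the mannose receptor Mrc1 and the scavenger receptor Stab1. Pf4 was at 5.16 and 5.18 CPM in Lt and 29.1 and 24.3 in Ht. Stab1 was at 106 and 117 CPM in Lt and 379 and 387 in Ht. In both genes the Lt samples were close together and the Ht samples several times higher. Another 3 fell, namely the hemoglobin scavenger receptor Cd163, the chemokine Ccl24 and the growth factor Igf1, which hepatocytes express strongly. The count of 6 higher was the same when any of the 4 samples was left out. Of the losses, that of Cd163 was not called without Lt_1, Ht_1/3 or Ht_2 (edgeR adjusted p = 0.0563, 0.0769 and 0.0702), nor that of Ccl24 without Ht_1/3 (0.0572).

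Of 15 macrophage genes, C1qb, Mrc1, Ms4a7 and Trem2 rose and none fell, with a median of 0.93, and several lay near the fold threshold; over all genes 11.7% were called higher and 20.2% lower. Adgre1, which encodes F4/80, was at 57.3 and 94.3 CPM in Lt and 118 and 143 in Ht. Cd68, a lysosomal glycoprotein of macrophages, was at 27.3 and 38.5 CPM in Lt and 62.6 and 66.5 in Ht. Neither was called (log2 fold changes 0.78 and 0.97). Trem2, a lipid-sensing receptor, was at 5.3 and 9.97 CPM in Lt and 41 and 37.4 in Ht (log2 fold change 2.36, standard error 0.43, edgeR adjusted p = 0.00405). The count of 4 became 9 with DESeq2, 14 with total counts, 8 without Lt_2 and 3 without any other single sample. Of 12 monocyte genes, the integrin Itgam, the chemokine receptor Cx3cr1, the sialophorin gene Spn and the proteoglycan Vcan rose, with a list median of 0.92. Cx3cr1 was at 18.5 and 42.7 CPM in Lt and 103 and 113 in Ht. Without Lt_1 or without Ht_1/3 none of these 4 calls or any other of the list remained, and without Ht_2, 1 did. Ccr2, the receptor that brings inflammatory monocytes into tissue, was at 31.2 and 94.1 CPM in Lt and 68.1 and 90.4 in Ht, so Lt_2 was level with the Ht samples and the groups overlapped. Of 15 lipid-associated macrophage genes, Trem2, Gpnmb and Cd63 rose. The call of Gpnmb was lost without Lt_1 (edgeR adjusted p = 0.234), Ht_1/3 (0.130) or Ht_2 (0.102), and that of Cd63 without Lt_1 (0.0851) or Ht_1/3 (0.0543). The 3 of 15 that rose, and the 4 of 15 that fell, are near those shares over all genes. Fabp5, Arg1, Lpl and Cd36 fell and were also present in con, Lpl at a mean of 48 and Arg1, an enzyme of the hepatic urea cycle, at 3034. The call of Lpl was lost without Lt_1 (edgeR adjusted p = 0.0585) or Ht_1/3 (0.0907).

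The myeloid genes could be set beside F4/80+ and CD11b+ cells (tumor-associated macrophages, TAM, 3 libraries each) isolated from medium-content metastases at 11 dpi. They were counted in a separate table and are set beside tissue only as CPM of total counts. Fcrls was at a mean of 313 CPM in F4/80+TAM and 384 CPM in CD11b+TAM, against 149 in Ht. Cbr2 was at 60.2 CPM in F4/80+TAM and 60.9 CPM in CD11b+TAM, against 38.5 in Ht. Stab1 was at 2557 CPM in F4/80+TAM and 2194 CPM in CD11b+TAM, against 608 in Ht. All 3 genes were thus richer in both isolated populations than in the high-content tissue. Of 1551 genes that rose and had at least 10 CPM in Ht, 274 were richer in both isolated populations than in Ht. Ordered by fold change they began with Fcrls, Cbr2, Nxpe5, the thrombospondin Thbs1, F13a1, Ms4a7, the prostaglandin D synthase Hpgds and the complement receptor C5ar1. C5ar1 was at 6.16 and 9.13 CPM in Lt and 37.6 and 45.3 in Ht. At the other end, 352 of the 1551 were under 0.1 times their Ht level in both isolated populations. Ogn, a small matrix proteoglycan, led them, at 10.5 and 28.2 CPM in Lt and 199 and 204 in Ht (log2 fold change 3.38, standard error 0.58, edgeR adjusted p = 0.00352). Tent5b, a terminal nucleotidyltransferase, followed at 2.58 and 4.59 CPM in Lt and 36.3 and 38.2 in Ht. Msln, which encodes the tumor antigen mesothelin, was at 14.5 and 26 CPM in Lt and 134 and 117 in Ht, with a con mean of 0.348. Of the other 5 mesothelial markers tested, none was called, while 11.7% of all genes were called higher and 20.2% lower. These rankings were drawn after the values had been seen, and the shares of all tested genes within the same limits were not counted.

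**Figure D3:**
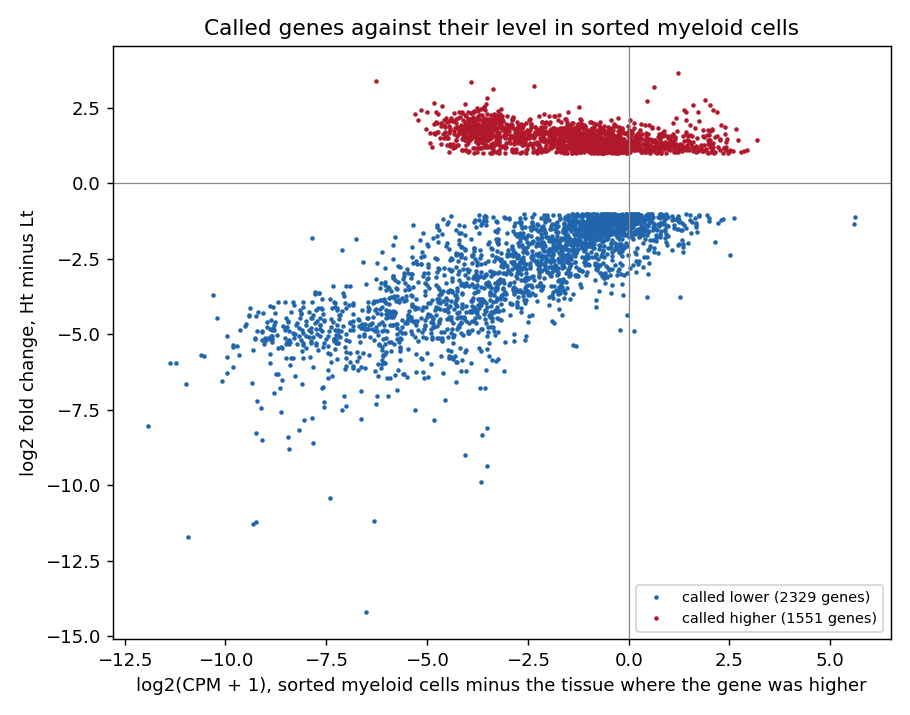
Log2 fold change from Lt to Ht (vertical axis) of the called genes with at least 10 CPM in the higher group. The horizontal axis is a difference in log2(CPM + 1). It is the value for the mean of both isolated myeloid populations minus that of the tissue group where the gene was higher. Genes right of the vertical line are richer in the isolated cells, and the steepest gains, Fcrls and Ogn, lie on opposite sides of it.

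Genes of lymphocytes and other immune programs were read beside the same shares, 11.7% of all genes called higher and 20.2% lower. Of 18 T cell genes none rose and Icos fell, and of 15 genes of NK and cytotoxic cells the transcription factor Eomes and the perforin gene Prf1 rose. Eomes was at 0.788 and 3.95 CPM in Lt and 11.3 and 11.1 in Ht, and neither call held without Lt_1 or without either Ht sample. Cd8a, a co-receptor of cytotoxic T cells, was at 0.502 and 5.57 CPM in Lt and 3.54 and 9.05 in Ht. Gzmb, a granzyme, was at 2.36 and 16 CPM in Lt and 10.5 and 12.2 in Ht. In both genes Lt_1 was far below Lt_2, and the groups overlapped. Of 14 B and plasma cell genes 3 fell, all with at most 3 CPM in any sample of the comparison. Of 8 genes of MHC class II presentation none was called, with a median of -1.04. H2-Ab1 was at 224 and 456 CPM in Lt and 114 and 144 in Ht, with Lt_2 the highest of the 4 samples. Of 22 interferon-stimulated genes Oasl2 rose and none fell, with a median of 0.50, and 13 were called higher under total-count scaling. Of 15 genes of the interferon-gamma response Iigp1 fell, and the median of -0.14 turned positive, to 0.72, with total counts. Among cytokines, Csf1, the growth factor of macrophages, was at 38.6 and 85.6 CPM in Lt and 173 and 154 in Ht and rose (log2 fold change 1.40, standard error 0.41, edgeR adjusted p = 0.0218, and 0.132 without Lt_1 and 0.0874 without Ht_1/3 and 0.0626 without Ht_2). Il1a, Il1b and the neutrophil attractant Cxcl1 fell, Il1b from 4.01 and 5.95 CPM in Lt to 0.746 and 1.46 in Ht. The call of Il1b was lost under total-count scaling (edgeR adjusted p = 0.186) and without any single sample (0.0825 to 0.206), and that of Cxcl1 under total-count scaling, without Lt_1 and without Ht_1/3 (0.0881 to 0.104). Of the checkpoint genes, Vsir and Cd276 rose, Lgals9 fell, and Cd274, the gene of PD-L1, was at 9.1 and 12.2 CPM in Lt and 8.89 and 10.2 in Ht, with overlap. The calls of Vsir and Cd276 were lost without Lt_1 (edgeR adjusted p = 0.136 and 0.0843), Ht_1/3 (0.0625 and 0.0502) or Ht_2 (0.0862 and 0.0522). That of Oasl2 was also lost without each of these 3 samples. Of 15 neutrophil genes tested Mmp9 rose and Retnlg, G0s2 and Hdc fell. Of 14 dendritic cell genes Cacnb3 and Fscn1 rose and Siglech fell.

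Vascular genes divided between the sinusoid and the general endothelium. Of 18 genes of liver sinusoidal endothelium, 14 fell and 1 rose, with a median of -2.57, against 20.2% of all genes called lower. Clec4g (GRCm38 chromosome 8 from 3707064 to 3720651), a C-type lectin of the sinusoid, was at 139.9 and 79.8 CPM in Lt and 2.03 and 3.9 in Ht, with both Ht samples far below both Lt samples (log2 fold change -5.23, standard error 0.77, edgeR adjusted p = 0.00303). Stab2, the hyaluronan scavenger receptor, was at 76.7 and 71.4 CPM in Lt and 6.75 and 11 in Ht. Gata4, the transcription factor that specifies these cells, was at 32 and 23.4 CPM in Lt and 4.62 and 4.0 in Ht. Their con means were 73.1, 101 and 34.7 CPM. The angiocrine factors Wnt2, Wnt9b and Rspo3, which pattern the lobule, also fell, and the call of Wnt9b was lost without Lt_1, Ht_1/3 or Ht_2. Stab1, listed here as well as among macrophage genes, rose instead. Of 19 genes of vascular and tumor endothelium, 3 rose, 2 fell and 14 were not called. The 3 of 19 that rose are near the 11.7% of all genes called higher. The difference from the sinusoidal list was not tested. Cdh5, the junctional cadherin shared by all endothelium, was level after TMM scaling, with a con mean of 58.2 CPM. It was at 59.3 and 59.3 CPM in Lt and 55.9 and 56.9 in Ht. The list median was -0.17 after TMM scaling and turned to 0.77 with total counts. The members that rose were Cd34, the tip cell peptide Apln and its receptor Aplnr. Cd34 was at 52.8 and 95.4 CPM in Lt and 214 and 192 in Ht (log2 fold change 1.45, standard error 0.50, edgeR adjusted p = 0.0406, and 0.229 without Lt_1 and 0.13 without Ht_1/3 and 0.099 without Ht_2). Apln was at 5.88 and 10.8 CPM in Lt and 43 and 42.3 in Ht. Aplnr was at 2.08 and 1.88 CPM in Lt and 17.4 and 20 in Ht. The Lt samples were level with each other for Aplnr, which was at 0 in con, and both Ht samples were well above them. Plvap, of the endothelial diaphragm, and Tek, the angiopoietin receptor, fell, Tek from 24.7 and 17.2 CPM in Lt to 5.48 and 5.08 in Ht. Plvap was close to the fold threshold and lost its call in 10 alternatives, with a log2 fold change of -0.97 by DESeq2 and -0.16 under total-count scaling. The call of Aplnr was lost without Lt_1, Lt_2 or Ht_2, with an edgeR adjusted p of up to 0.0826.

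The VEGF system moved in both directions (over all genes, 11.7% were called higher and 20.2% lower). The ligand Vegfa fell from 87.4 and 75.8 CPM in Lt to 35.8 and 29.5 in Ht (log2 fold change -1.32, standard error 0.21, edgeR adjusted p = 0.00318), and the groups did not overlap. Its con mean was 93.8 CPM. Vegfc, the lymphatic ligand, rose from 6.95 and 13.9 CPM in Lt to 24 and 22.9 in Ht, but was not called without Lt_1 (log2 fold change 0.77, edgeR adjusted p = 0.169), Ht_1/3 or Ht_2. Among the receptors, Kdr fell from 66.7 and 63.4 CPM in Lt to 24.1 and 24.2 in Ht together with Flt4, the receptor of Vegfc. The co-receptor Nrp2 rose from 24.9 and 34.4 CPM in Lt to 76 and 70.5 in Ht. Flt1, the decoy receptor, was at 21.9 and 26.1 CPM in Lt and 16 and 15.3 in Ht and was not called. The call of Kdr was lost without Lt_1, Ht_1/3 or Ht_2. The losses depended on the scaling: under total counts none of the 9 genes was called lower and 4 were called higher, and Vegfa had a log2 fold change of -0.42 (edgeR adjusted p = 0.111).

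Kupffer cell genes fell. Of 16, 15 fell and none rose, against 20.2% of all genes called lower, with a median of -2.59; the exception was Folr2 (10.3 and 6.73 CPM in Lt and 6.92 and 4.67 in Ht). Clec4f (ENSMUSG00000014542, GRCm38 chromosome 6 from 83644542 to 83656187), a lectin receptor restricted to Kupffer cells, was at 287 and 255 CPM in Lt and 24.8 and 43.4 in Ht. Lt lay above the con mean of 173 CPM, and both Ht samples below it (log2 fold change -2.99, standard error 0.64, edgeR adjusted p = 0.00646, and 0.0555 without Ht_1/3). Marco, a scavenger receptor, was at 58.1 and 57.3 CPM in Lt and 3.39 and 10.8 in Ht. Cd5l, a secreted survival factor, was at 300.2 and 305 CPM in Lt and 30.6 and 49.4 in Ht. Timd4, a receptor for dying cells, was at 19.7 and 16.4 CPM in Lt and 1.62 and 4.25 in Ht. In con these were at 10.7, 137 and 8.89 CPM, below both Lt libraries in each case; this difference from con was not tested. Spic and Nr1h3, transcription factors of the Kupffer cell program, fell by 2.15 and 3.36 on the log2 scale. The call of Spic was lost under total-count scaling (log2 fold change -1.28, edgeR adjusted p = 0.0737). It was also lost without Ht_1/3 or Lt_2 (log2 fold changes -1.62 and -1.78). Those of Marco and Timd4 were lost without Ht_1/3 (-2.42 and -2.08) or Lt_1 (-3.02 and -2.49). Without Ht_1/3, 6 of the 16 were called lower, and without Lt_1, Lt_2 or Ht_2, 10, 13 and 12 were.

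**Figure D4:**
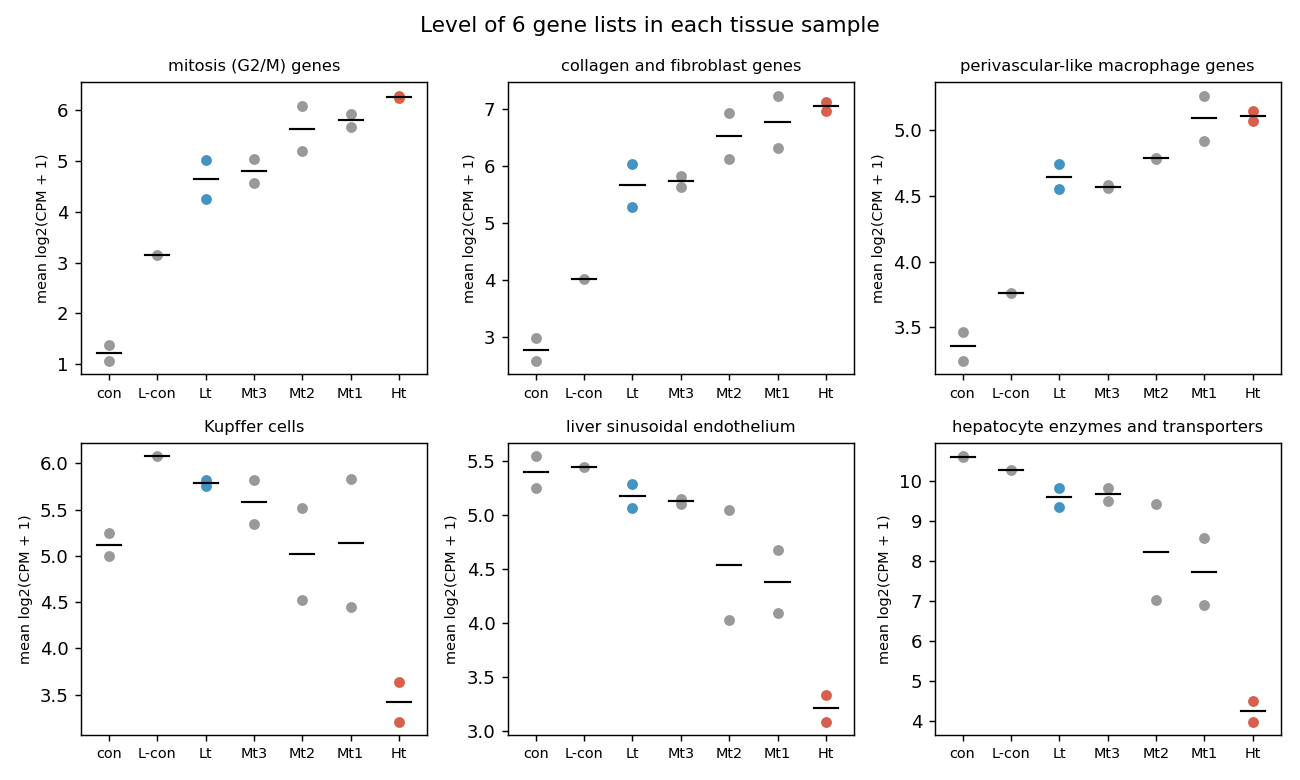
Mean log2(CPM + 1) of 6 gene lists (vertical axis) in every tissue sample, grouped from con to Ht along the horizontal axis, with dots for samples and bars for group means; Lt is blue and Ht red. The Kupffer cell list is higher in Lt than in con and lowest in Ht, the mitosis list climbs from con to Ht, and the hepatocyte enzyme list is far lower in Ht than in any other group.

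Stellate and biliary lists fell in part. Of 16 stellate cell genes 10 fell and none rose, with a median of -1.65, and 20.2% of all genes were called lower. Reln, the reelin gene, was at 46.6 and 43.6 CPM in Lt and 8.74 and 10.1 in Ht. Lrat, which esterifies vitamin A, was at 24.3 and 26.3 CPM in Lt and 4.9 and 6.82 in Ht. In both genes the samples of each group were close together and the groups far apart. The collectins Colec10 and Colec11 fell by 3.47 and 3.37 on the log2 scale. Des, Dcn, Ecm1, Hand2 and Gfap were among the 6 not called. With total counts or without Ht_1/3, 6 were called lower. Of 11 cholangiocyte genes 6 fell, with a list median of -1.84. Sox9, of the bile duct lineage, was level after TMM scaling at 15.1 and 14 CPM in Lt and 15 and 17.5 in Ht. Genes of red blood cells fell in 6 of 7 tested. Hbb-bs, an adult beta globin, was at 126 and 172 CPM in Lt and 20 and 12.3 in Ht, with a con mean of 146. Alas2, which starts heme synthesis in erythroid cells, was at 138 and 96.3 CPM in Lt and 1.64 and 1.29 in Ht. The globin copies share near-identical sequence, so their split is uncertain.

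Hepatocyte genes fell more steeply than those of any other list of liver cells by median, and without exception in the lists of secreted proteins (18 of 18), enzymes and transporters (22 of 22) and transcription factors (16 of 16), with medians of -4.76, -5.33 and -4.38, against 20.2% of all genes called lower. Hnf4a (ENSMUSG00000017950, GRCm38 chromosome 2 from 163506808 to 163572910), the nuclear receptor at the top of the hepatocyte program, was at 1096 and 816 CPM in Lt and 21.8 and 43.2 in Ht (log2 fold change -4.88, standard error 0.79, edgeR adjusted p = 0.00317). Cyp7a1, the rate-limiting enzyme of bile acid synthesis, was at 58.1 and 79.6 CPM in Lt and 1.1 and 0.383 in Ht. The bile salt importer Slc10a1 was at 371 and 283 CPM in Lt and 2.57 and 3.62 in Ht. Lt_1 was above Lt_2 for Hnf4a and Slc10a1 and below it for Cyp7a1. By zone of the lobule, 12 of 12 periportal genes fell with a median of -5.94, led by Cyp2f2 (1043 and 823 CPM in Lt and 1.19 and 4.87 in Ht), and 11 of 12 pericentral genes with a median of -4.01. Glul, the glutamine synthetase of the cells around the central vein, fell least of the called pericentral genes, from 1053 and 868 CPM in Lt to 127 and 117 in Ht, and Slc13a3 was not called. A test of the difference between zones was not made. The core of the HNF1 site, written GTTAAT, was in 11 of the 74 upstream windows of the hepatocyte lists (14.9%), against 4.3% of tested genes. It was also in 2 of 20 windows of the mitosis list (10%) and 1 of 14 of the Kupffer cell list (7.14%). In the replication list it was in 0 of 19, and in the collagen and fibroblast list in 0 of 10. Fgb, a fibrinogen chain, was at 12130.5 and 7205 CPM in Lt and 309 and 349 in Ht. Alb, the albumin gene, was at 98827 and 49769.9 CPM in Lt and 1627 and 2498 in Ht, and its log2 fold change of -5.17 had an edgeR adjusted p of 0.0128. The adjusted p of Alb was 0.115 without Ht_1/3, 0.092 without Ht_2 and 0.0605 without Lt_1. From 13 to 16 of the transcription factors, 16 to 18 of the secreted proteins and 20 to 22 of the enzymes were called lower when single samples were left out. Their windows are chr5:90460620-90460869 on the plus strand and chr3:83049864-83050113 on the minus strand (RefSeq, GRCm38.p6), shown with this core or its reverse complement in capitals.
Alb: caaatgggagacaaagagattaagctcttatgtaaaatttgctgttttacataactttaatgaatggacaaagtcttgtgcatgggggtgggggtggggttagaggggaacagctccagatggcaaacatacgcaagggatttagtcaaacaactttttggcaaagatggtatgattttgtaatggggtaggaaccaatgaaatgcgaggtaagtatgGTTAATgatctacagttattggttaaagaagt
Fgb: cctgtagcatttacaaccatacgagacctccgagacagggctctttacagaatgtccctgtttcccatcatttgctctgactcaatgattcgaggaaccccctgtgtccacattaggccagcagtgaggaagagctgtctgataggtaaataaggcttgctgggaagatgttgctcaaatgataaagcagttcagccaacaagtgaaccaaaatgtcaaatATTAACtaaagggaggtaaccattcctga

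Of 18 acute-phase genes, 16 fell from Lt to Ht, with a median of -4.05, against 20.2% of all genes. Saa1, a serum amyloid induced in inflammation, was at 758 and 941 CPM in Lt and 7.22 and 6.44 in Ht, and its con mean was 66 ± 38.7 CPM (SD, n = 2). Saa2 was at 348 and 524 CPM in Lt and 2.54 and 1.25 in Ht, with a con mean of 24.1, and Orm2, an orosomucoid, at 71.1 and 118 CPM in Lt and 7.1 and 16.9 in Ht, with 8.06 in con. These genes were thus higher in both Lt samples than in con, a difference that was not tested, and Saa1 and Saa2 were below the con mean in both Ht samples. Copies of the Saa and Orm families share sequence, so their split is uncertain. Hamp, the hepcidin gene, was at 542 and 415 CPM in Lt and 4.85 and 10.2 in Ht, below its con mean of 1046. Lcn2 and Il1rn, which immune cells also express, were not called.

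Of the 3476 genes that fell, 772 were not higher in con than in Lt, and 342 of these had at least 10 CPM in Lt. The steepest losses among them were the major urinary proteins, secreted by hepatocytes, whose near-identical copies can exchange reads. Mup12 was at 2239 and 2334 CPM in Lt and 1.27 and 0 in Ht. The con libraries were unlike each other for these genes, with Mup12 at 205 and 2614 CPM and Mup17 at 1.06 and 971, so the place of Mup12 and Mup17 among genes not higher in con rests on 1 con library. Mup18 was at 231 and 4.79 CPM in Lt and 0 and 0 in Ht, at least 997-fold lower in Ht against a floor of 3 counts per library, but its Lt level came from Lt_1, and that of Mup15 (47.4 and 1318 CPM in Lt and 0.466 and 0 in Ht) from Lt_2. The call of Mup18 was lost without Lt_1, Ht_1/3 or Ht_2 (edgeR adjusted p = 0.110, 0.0862 and 0.0737), that of Mup17 without Ht_1/3 or Ht_2 (0.0906 and 0.0794), and that of Mup15 without Lt_2, Ht_1/3 or Ht_2 (0.0865 to 0.141). Serpina4-ps1, a serpin pseudogene, was at 511 and 323 CPM in Lt and 0.951 and 0.905 in Ht, above its con mean of 63.2. Hsd3b5, a steroid dehydrogenase of the liver, was also among the steepest losses of all (204 and 191 CPM in Lt and 0.224 and 0 in Ht), with a con mean of 235. Cfd, the adipocyte gene of complement factor D, was at 41.6 and 0.518 CPM in Lt and 0.0559 and 0 in Ht. The 6 adipocyte genes summed to 52.0 CPM in Lt_1 against 0.518 in Lt_2, so the call of Cfd rests on 1 library, and without Lt_1 or either Ht sample no adipocyte gene was called lower by edgeR.

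Some genes that fell were rich in the isolated myeloid cells. Of the 342 genes, 40 were richer in both populations than in Lt. By fold change Gbp2b, an interferon-inducible guanylate-binding protein, came first, at 20.2 and 22 CPM in Lt and 1.08 and 2.09 in Ht and a mean of 3.35 in con. In the isolated cells its means were 47.9 CPM in F4/80+TAM and 42.7 CPM in CD11b+TAM. AW112010, an interferon-inducible transcript, was at 122 and 117 CPM in Lt and 24.4 and 35.1 in Ht. The cytokine Il18 was at 12.2 and 11.6 CPM in Lt and 3.86 and 4.25 in Ht. In each of these genes both Ht samples were below both Lt samples, and the call of Il18 was lost under total-count scaling. Stat3, a transcription factor of cytokine signaling, was at 238 and 189 CPM in Lt and 70.5 and 79.6 in Ht (log2 fold change -1.51, standard error 0.35, edgeR adjusted p = 0.00888, and 0.0615 without Lt_1 and 0.0642 without Ht_1/3) and was not called under total-count scaling, where its log2 fold change was -0.60. This set was also drawn after the values had been seen, and the share of all tested genes richer in both populations was not counted.

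Y-linked genes, which only male cells carry, fell in 4 of 4, with a median of -1.86, against 20.2% of all genes called lower. Ddx3y, an RNA helicase, was at 92.6 and 69.4 CPM in Lt and 14.2 and 19.4 in Ht (log2 fold change -2.27, standard error 0.46, edgeR adjusted p = 0.0054). Eif2s3y, a translation initiation subunit, was at 50.4 and 39.3 CPM in Lt and 6.43 and 8.74 in Ht. The histone demethylase Kdm5d was at 17.1 and 14.5 CPM in Lt and 6.36 and 6.58 in Ht. Uty, of the same enzyme class, was at 16.6 and 13.6 CPM in Lt and 4.98 and 6.09 in Ht. In con the means were 113, 49.7, 18.6 and 23.2 CPM, so Lt was nearer to con than to Ht. With total counts 2 of the 4 were called lower. Each has an X-linked relative of similar sequence, so the split of reads is uncertain.

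Markers of other tissues and of sample handling were checked over the same samples, beside 11.7% of all genes called higher and 20.2% lower. None of 2 skeletal muscle genes tested was called, and of 8 smooth muscle genes Smtn rose. The only pancreas gene tested, Cela1, and 1 of 3 platelet genes, Ppbp, fell, as did Ccr3 among 5 genes of mast cells, basophils and eosinophils. The calls of Cela1, Ppbp and Ccr3 were lost under total-count scaling and without several single samples, as were those of Dusp1, Zfp36, Icos, Siglech and Lgals9. Of 15 immediate-early and heat-shock genes, which respond to the handling of tissue, Fos, Fosb and Jun rose and Dusp1 and Zfp36 fell, with a median of 0.18, so 3 of 15 and 2 of 15 lie near the shares over all genes. The calls of Smtn, Fos and Fosb were lost without 2 or 3 of the single samples. Mitochondrial transcripts took 4.58% and 3.99% of counts in Lt and 1.45% to 1.6% in the Ht libraries. Their part in the results was not tested.

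Medium-content metastases (Mt, 6 libraries at 9 and 11 dpi) lay between the groups for most called genes. Their median fell between the Lt and Ht means for 1997 of the 2004 genes that rose and 3397 of the 3476 that fell. Called genes were selected for a wide gap between Lt and Ht, so a median inside it was likely. The share over all genes tested was not counted.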

How the data were processed

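Tissue RNA was extracted with TRIzol and libraries were prepared with the NEBNext Ultra RNA kit, which does not mark strand. The submitters' processing notes name CASAVA, HISAT2 2.0.5 and featureCounts 1.5.0-p3 with GRCm38 (mm10). The authors deposited raw read counts per gene for the tissue libraries and, in a separate table, for the isolated cells. FPKM was computed here as TMM-normalized CPM over the gene length in kilobases given in the deposited table, to compare levels between genes. Antisense and overlapping genes cannot be told apart without strand.

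Counts of Ht_1 and Ht_3 were summed, since the Methods call them identical. Genes passing filterByExpr were fitted by edgeR 4.0.16 (TMM, glmQLFit and glmQLFTest, R 4.3.3) over 13 tissue samples in 7 groups that shared 1 estimate of the spread, with 6 residual degrees of freedom. Standard errors are the absolute log2 fold change over the square root of F. Nothing in the labels separates cultures or litters beyond the samples, so p-values measure the spread between these samples, which for pieces of 2 livers may be partly technical. Alternatives were DESeq2 1.42.0, other scalings, filters and sample sets. In simulated data for Lt against Ht, 66% of 200 genes changed by a log2 size of 2 were recovered among 16886 tested, with 7 wrong calls. Only these 200 genes were changed there, while 5480 of 17187 were called in the measured samples. Recovery and wrong calls with so many changed genes were not tested.

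The members and gene lists were chosen with earlier results of these data known, and the list of MC38 genes was taken from those results. Genes were named from these lists, from the 10 steepest called changes in each direction with at least 10 CPM in the higher group, from the 10 steepest losses not higher in con than in Lt, and from the 10 largest called gains in FPKM. The orderings against isolated cells were added after the values were seen. Promoters are the upstream 250 bases of RefSeq genes, matched by symbol, and of 17187 tested genes 11978 had one. A symbol borne by more than 1 gene was read from its first entry. All columns of per-sample values were mapped to samples (0 left over). Some genes of the lists are not reported here by name.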

Additional observations from a re-analysis of the deposited data

How the results depend on the processing

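Of 161 named genes that were called, 77 kept the call in every alternative that tested them and 84 lost it in at least 1, while 12 gained one; no called gene changed sign. Under total-count scaling 8297 genes were called, 6216 higher and 2081 lower, with 6 stellate genes and 2 Y-linked genes lower and 14 macrophage genes higher. Scaling by genes outside the hepatocyte lists gave 4591 higher, 13 macrophage genes higher and 2 Y-linked genes lower. Macrophage genes called higher numbered 9 with DESeq2, 9 with RLE size factors, 9 with no filter, 8 with a minimum of 10 counts in every tissue sample, 8 by adjusted p alone and 7 with Ht_1 alone. The stricter filter also left 3 perivascular and resident-like genes and 13 mitosis genes called higher, since it removed genes near 0 in con from the test, and adjusted p alone gave 3274 genes higher.

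Leaving out each sample in turn gave 2786 to 5960 genes called, 612 to 2468 higher and 2123 to 3492 lower, the lowest counts of all and of higher genes without Lt_1 (the remaining sample of the group was assumed to vary like the other groups). The counts ran from 4 to 19 for replication, 5 to 25 for mitosis, 3 to 12 for collagen and fibroblast, 4 to 7 for basement membrane, 6 to 13 for Kupffer cell, 6 to 10 for stellate cell and 3 to 8 for macrophage genes, and were 11 to 14 for sinusoidal, 6 in each case for perivascular and resident-like, 5 in each case for erythroid and 3 to 4 for Y-linked genes. The cause was not tested. Replicates 1 and 2 of Lt and Ht share only a number (r = -0.098 between the deviations, 2 pairs), and a fit with this number as a replicate block called 5706 genes, 2221 higher and 3485 lower. Depth limited genes under 3 counts per library.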
